A study of Mus musculus with 4 samples.

Results

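The nuclear-encoded subunits of the mitochondrial respiratory chain and ATP synthase were followed in 4 RNA-seq libraries of mouse intestine. Members were taken by gene name: the Nduf genes of complex I, Sdh genes of complex II, Uqcr genes of complex III, Cox genes of complex IV and Atp5 genes of complex V, without genes named as pseudogenes. This gave 89 genes of the 55203 in the files, 42 for complex I, 4 for complex II, 8 for complex III, 17 for complex IV and 18 for complex V. The name, and no measured value, decided membership. The pattern for complex IV left out Cox4i1 and Cox4i2. The 89 genes carry 88 symbols, because Atp5o has 2 gene identifiers, one of them a readthrough model near 0. In GENCODE vM39, 85 of the 89 are protein coding and 4 (Ndufa11b, Ndufs6b, Ndufb4c and Cox6c2) are pseudogene models. The files use older names for 17 members, such as Atp5b for Atp5f1b, and the names in the files are kept here.

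All 4 libraries came from wild-type C57BL/6NTac male mice of 8 to 12 weeks, kept specific-pathogen free. The labels put 2 libraries under processing with RVC (ribonucleoside vanadyl complex, which blocks ribonucleases) at 4 mM and 2 under fresh frozen. The same protocol text, with an RVC rinse, stood with every library, so how the frozen tissue was handled is known from the label alone. The 4 batch numbers differ, so the group and the batch cannot be told apart. No label says whether the 2 libraries of a group came from separate animals. The tissue was labelled ileum, whereas the protocol names distal colon. Of 6 ileum marker genes, Apoa4 was listed at 0 in every library, Apoa1 stayed at 0.094 FPKM or less, and Fabp6, the ileal bile acid binding protein, lay between 2.70 and 3.96. The other 3 were detected too, Slc10a2 between 2.33 and 3.07, Fabp2 between 14.5 and 43.7 and Mep1b between 48.9 and 61.4 FPKM. The 12 colonocyte markers had a median of 783 FPKM, but they include general epithelial genes such as Epcam and Cdh1 and do not settle the region. The tissue is called intestine here.

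The respiratory chain passes electrons from NADH (complex I) and succinate (complex II) through ubiquinone to complex III, cytochrome c and complex IV, where oxygen is reduced. Complexes I, III and IV pump protons across the inner mitochondrial membrane, and ATP synthase, complex V, uses their return to make ATP. A few hydrophobic subunits are encoded in mitochondrial DNA, and the rest, described here, are transcribed in the nucleus and imported. Absorptive cells of the colon are known for oxidizing butyrate made by bacteria.

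Expression was given as FPKM, fragments divided by transcript length and by library size, so that genes of different length can be set side by side. The level of a gene was the sum over its transcripts. Libraries differed little in depth, the shallowest having 72.6% of the depth of the deepest, read from the ratio of coverage to FPKM. The confidence bounds that Cufflinks gives are per transcript. Over the main transcripts of the members, the median bound lay within 5.97% to 6.5% of the transcript's level, depending on the library. No bound was computed for the gene sums. Differences between groups were computed on log2(scaled FPKM + 1) over the 13771 genes with a mean of at least 1, a longest transcript of at least 300 nt and reliable estimates. Of the 89 members, 79 met these conditions: 38, 4, 8, 12 and 17 for complexes I to V. The other 10 were Ndufa4l2, Ndufa11b, Ndufb11b, Ndufs6b, Cox6a2, Cox6c2, Cox7b2, Cox8b, Cox8c and the Atp5o readthrough model. Of these, Cox6c2 was left out by its length and the rest by their low level. In bulk tissue, fewer cells of a type and less RNA per cell cannot be told apart.

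Subunit genes were among the most abundant transcripts of the tissue, and their median level differed between complexes, with wide ranges within each. Of the 79 tested members, 76 lay in the top 10% of tested genes, which began at 44.0 FPKM, and 60 in the top 5%. The median member of complex IV was highest with 473 FPKM, followed by complex V with 329, complex III with 261, complex II with 107 and complex I with 102. Medians per library kept complexes IV, V and III in that order: complex IV had 488, 494, 471 and 451, complex V 308, 340, 319 and 318, and complex III 284, 276, 236 and 247 FPKM in RVC 1, RVC 2, fresh frozen 1 and fresh frozen 2. Complex II with 111, 102, 111 and 102 FPKM and complex I with 98.4, 108, 100.3 and 93.8 FPKM did not keep their order, since complex I was above complex II in RVC 2. The members of a complex were far from equal: the highest exceeded the lowest 11.7-fold in complex I, 1.77-fold in complex II, 8.55-fold in complex III and 6.55-fold in complex V. In complex IV the ratio was 604, set by Cox6b2, an isoform of testis. Across the 79 members, level and main transcript length went in opposite directions (Spearman's rho of -0.42 across genes, against -0.03 over all genes tested), although FPKM is per length.

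**Figure D1:**
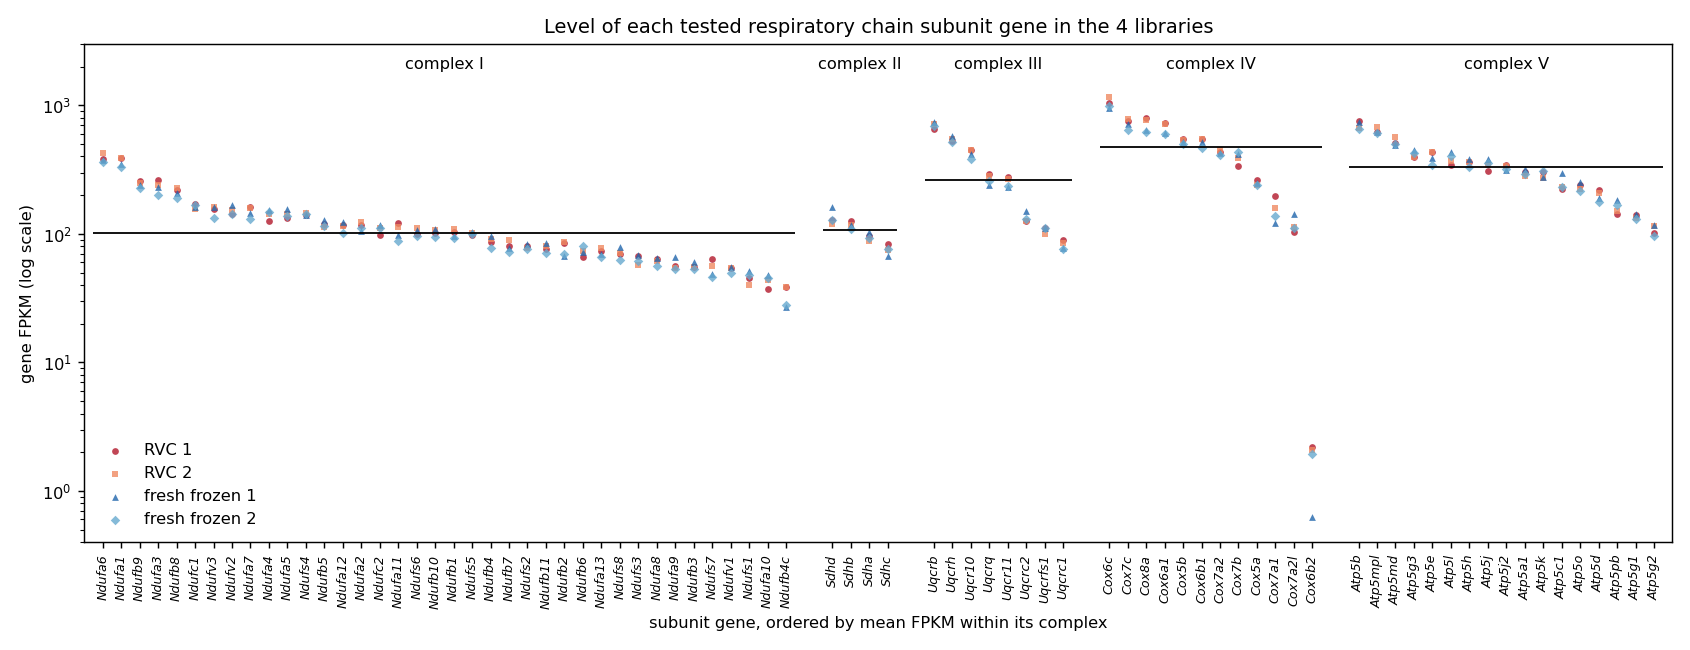
FPKM (log scale) of the 79 tested subunit genes in the 4 libraries, grouped by complex and ordered by mean level, with the median of each complex as a line. The line of complex IV is at 473 and that of complex I at 102 FPKM, and the 4 points of a gene lie close together except for Cox6b2 and Cox7a1.

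In complex I, the median of the catalytic core was below that of the other members, and the ranges overlapped. The 7 core subunits of the matrix arm, which bind the flavin and the iron-sulfur clusters, had a median of 63.8 FPKM. The other 31 tested members had one of 104.9, and include Ndufa4, later placed in complex IV, and the gene copy Ndufb4c. Main transcripts were longer in the core, with a median of 1046 nt against 590 nt. The part of length in this contrast was not tested. Ndufa6, a small accessory subunit of the LYR family, was highest, with 380 and 423 FPKM in RVC 1 and RVC 2 against 379 and 364 in fresh frozen 1 and 2. Ndufa1, a subunit of the membrane arm, had 386 and 392 against 350 and 331 FPKM, and Ndufb9, another LYR protein, 257 and 249 against 242 and 229. In these 3 genes both RVC libraries were above both frozen ones, by differences in log2 of 0.11, 0.20 and 0.11. Among the core, Ndufv2 was highest, with 143 and 154 against 169 and 143 FPKM. Ndufs1, the largest core subunit, had 45.4 and 40.0 against 51.1 and 48.3 FPKM, with both RVC libraries lower. Ndufs7, which holds the iron-sulfur cluster next to the quinone, went the other way, with 63.6 and 56.7 against 48.9 and 45.8 FPKM. The lowest tested members were Ndufb4c, described with the gene copies, and Ndufa10, with 37.3 and 43.8 against 47.5 and 45.4 FPKM.

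Complex II had the narrowest range. Sdhd, a membrane anchor, had 128 and 119 FPKM in the RVC and 161 and 128 in the fresh-frozen libraries. Sdhb, the iron-sulfur subunit, had 126 and 117 against 118 and 110, Sdha, the flavoprotein, 97.0 and 87.6 against 104 and 93.0, and Sdhc, the other anchor, 83.0 and 75.1 against 67.8 and 76.7 FPKM. Thus the anchors, which form a pair in the complex, had log2 differences of opposite sign, -0.21 and 0.13, and the groups overlapped in Sdhc. The 4 genes stayed within 1.77-fold of each other.

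In complex III, the 5 small subunits exceeded the core and Rieske proteins. Their main transcripts had 405 to 547 nt, against 1363 to 1896 nt, and the part of length was not tested. Uqcrb, the quinone-site subunit, had 659 and 712 FPKM in the RVC and 737 and 696 in the frozen libraries. Uqcrh, the hinge protein next to cytochrome c1, had 530 and 545 against 579 and 522, and Uqcr10 449 and 449 against 416 and 381 FPKM. The groups overlapped in the first pair and not in Uqcr10. Lowest were Uqcrfs1, the Rieske iron-sulfur protein that carries out electron transfer, with 110 and 100.2 against 111 and 110, and the core protein Uqcrc1 with 89.4 and 84.5 against 77.7 and 76.4 FPKM. Its partner Uqcrc2 had 125 and 125 against 152 and 129 FPKM, so that the core proteins differed in opposite directions, by 0.18 and -0.16 in log2, with no overlap between the groups in either. Cyc1, the cytochrome c1 gene that falls outside the naming rule, had 95.1 and 86.0 against 87.4 and 86.8 FPKM.

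Complex IV held the most abundant member, Cox6c, with 1034 and 1162 FPKM in the RVC and 950 and 989 in the fresh-frozen libraries. Cox7c had 751 and 778 against 716 and 648, and Cox8a 800 and 764 against 645 and 624 FPKM. All 3 are small single-helix subunits around the catalytic core, and in all 3 both RVC libraries were the higher ones. Cox7b was the exception among the abundant subunits, with 335 and 389 against 420 and 436 FPKM. Cox5a, which was alone in complex IV in having overlapping groups, had 262 and 241 against 247 and 239 FPKM.

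Several complex IV subunits exist as alternative forms, and in the families that could be compared the general form had the higher level. Cox4i1 and Cox4i2, outside the naming rule, could not be compared. No gene was found under the name Cox4i1, and Cox4i2 had 0.533 and 0.339 against 0.288 and 0.159 FPKM. Cox6a1 had 733 and 712 against 606 and 595 FPKM, whereas its heart and skeletal muscle form Cox6a2 stayed between 0.0578 and 0.0795. Cox8a was accompanied by at most 1.43 FPKM of the muscle form Cox8b, which had 1.43 and 0.207 against 0.644 and 0.309, and Cox8c was listed at 0 in every library. Cox6b1 had 547 and 545 against 518 and 466 FPKM, and the testis form Cox6b2 2.2 and 2.1 against 0.627 and 1.94. Cox7b2, another testis form, was listed at 0. The testis germ cell markers were absent as well, with 5 of 6 listed at 0 and Ldhc at 0.0614 FPKM or less. Cox7a1, known as the heart and skeletal muscle form, was the one muscle form at a high level, with 196 and 160 against 121 and 139 FPKM next to 431 and 447 against 423 and 411 FPKM of the general form Cox7a2. Cox7a1 thus stood at 121 FPKM or more in tissue in which Cox6a2 and Cox8b were near 0. Cox7a2l, a relative of Cox7a2, had 104 and 112 against 142 and 111 FPKM. Ndufa4, which is named for complex I and was later placed in complex IV, had 125 and 143 against 154 and 149 FPKM. Its relative Ndufa4l2 had 0.193 and 0.468 against 0.356 and 0.308 FPKM. Both are counted with complex I here.

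Markers of muscle were read beside Cox7a1. All 10 smooth muscle markers were higher in both RVC libraries than in both frozen ones, against 26.5% of all genes. Their median log2 difference was 0.77, and none passed the adjusted threshold. Their summed level was 1193 and 1757 FPKM in the RVC and 747 and 798 in the frozen libraries. Actg2, enteric smooth muscle actin, was the highest of them with 305 and 507 against 137 and 203 FPKM. Cox7a1 was likewise higher in both RVC libraries, with its highest value in RVC 1, while the markers' sum was highest in RVC 2. Of 7 skeletal muscle markers, only Ckm reached a mean of 1 FPKM, with 3.81 and 4.76 against 2.58 and 1.86, and the summed level of the list lay between 2.83 and 7.84 FPKM. The 6 cardiac markers summed to between 3.32 and 6.73 FPKM, mostly from Tnnt2, and of the 4 brown fat markers Ucp1 and Elovl3 were listed at 0. The part of smooth muscle in the Cox7a1 difference was not tested.

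ATP synthase was led by Atp5b, the catalytic beta subunit, with 749 and 668 FPKM in the RVC and 745 and 657 in the fresh-frozen libraries. The small membrane proteins Atp5mpl, with 622 and 680 against 616 and 611, and Atp5md, with 513 and 563 against 489 and 499 FPKM, came next. Each of these exceeded the alpha subunit Atp5a1 in every library, which had 305 and 280 against 319 and 294 FPKM and forms the head together with an equal number of beta subunits. Of the 5 genes of the head and central stalk, the small subunits Atp5d and Atp5e were higher in both RVC libraries, with 221 and 208 against 189 and 176, and 435 and 431 against 390 and 345 FPKM. Of the 4 tested peripheral stalk genes, which hold the head in place, Atp5pb had 143 and 149 against 183 and 169 and Atp5j 308 and 343 against 382 and 353 FPKM, both with the RVC libraries lower, while Atp5h and Atp5o overlapped. Of the 5 membrane accessory genes, Atp5mpl, Atp5md and Atp5j2 were higher in both RVC libraries and Atp5l was lower, with 346 and 372 against 433 and 406 FPKM.

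The c ring, the rotor that protons turn, is built from a single protein whose mature form is encoded by 3 nuclear genes that differ in their import peptides. Atp5g3 supplied most of the level, with 399 and 398 FPKM in the RVC and 450 and 424 in the fresh-frozen libraries. Atp5g1 had 140 and 134 against 142 and 131, and Atp5g2 102 and 115 against 117 and 96.2 FPKM. Both RVC libraries were below both frozen ones in Atp5g3 (log2 difference of -0.13), and the groups overlapped in the other two. The 3 genes are told apart by reads because their letters differ even where the protein is shared. The last 228 coding bases, 75 codons and the stop, are shown 5′ to 3′ from the GENCODE vM39 transcripts (GRCm39, all on the minus strand; Atp5g3 coding region chr2:73738937-73741337, Atp5g1 chr11:95963930-95965851, Atp5g2 chr15:102571449-102576184), with capitals in the lower lines marking bases unlike Atp5g3.
Atp5g3: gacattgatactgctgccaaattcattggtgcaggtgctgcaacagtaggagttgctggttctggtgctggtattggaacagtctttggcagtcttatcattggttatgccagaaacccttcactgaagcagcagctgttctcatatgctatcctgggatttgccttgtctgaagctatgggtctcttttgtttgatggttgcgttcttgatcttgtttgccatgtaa
Atp5g1: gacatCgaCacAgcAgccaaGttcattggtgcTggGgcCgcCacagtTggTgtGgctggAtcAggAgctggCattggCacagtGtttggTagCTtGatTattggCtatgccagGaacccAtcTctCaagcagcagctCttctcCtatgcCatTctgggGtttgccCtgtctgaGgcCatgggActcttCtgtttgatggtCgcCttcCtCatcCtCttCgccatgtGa
Atp5g2: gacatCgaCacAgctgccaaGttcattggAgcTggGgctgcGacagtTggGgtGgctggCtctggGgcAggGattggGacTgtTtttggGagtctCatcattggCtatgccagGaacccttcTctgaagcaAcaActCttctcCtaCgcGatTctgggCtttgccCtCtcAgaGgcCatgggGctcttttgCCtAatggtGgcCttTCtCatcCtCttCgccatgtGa
Atp5g1 differed from Atp5g3 at 46 and Atp5g2 from Atp5g3 at 49 of these bases, and Atp5g1 from Atp5g2 at 34. The longest stretch that Atp5g3 shared without a difference was 11 bases with Atp5g1 and 8 with Atp5g2, against reads of 150 bases.

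Ndufb4 could not be separated from its copy in this way, and Cox6c differed from its copy at only 7 of 231 bases. Ndufb4c is a single-exon copy of Ndufb4, a membrane subunit of complex I, at chr15:73681356-73681745 (GRCm39, minus strand), and its 390 bases were identical to the coding sequence of Ndufb4 on chromosome 16. Ndufb4c had 38.6 and 38.3 FPKM in the RVC and 26.7 and 28.1 in the fresh-frozen libraries, the smallest adjusted p of all members (0.129, limma), and Ndufb4 86.2 and 91.8 against 97.0 and 77.8. Their sum had a log2 difference of 0.16, with 125 and 130 against 124 and 106 FPKM, while that of Ndufb4c alone was 0.48. How Cufflinks divided shared reads between them is not known, so the value of each alone is uncertain. Cox6c2 on chromosome 12 (chr12:56420378-56420608, minus strand) is a copy of the coding sequence of Cox6c on chromosome 15, and both are shown 5′ to 3′ because 7 bases of 231 tell them apart, marked in capitals.
Cox6c: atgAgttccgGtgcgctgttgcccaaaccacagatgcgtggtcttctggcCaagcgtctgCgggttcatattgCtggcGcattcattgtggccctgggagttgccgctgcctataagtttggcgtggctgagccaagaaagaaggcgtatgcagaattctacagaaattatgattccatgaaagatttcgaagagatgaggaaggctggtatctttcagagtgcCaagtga
Cox6c2: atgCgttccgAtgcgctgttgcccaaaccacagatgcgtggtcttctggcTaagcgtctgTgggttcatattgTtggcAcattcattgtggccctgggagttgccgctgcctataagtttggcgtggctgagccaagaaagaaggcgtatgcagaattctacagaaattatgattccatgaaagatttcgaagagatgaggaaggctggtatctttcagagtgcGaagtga
The copy was listed at 33.0 and 35.0 FPKM in the RVC and 36.8 and 35.7 in the frozen libraries, 2.92% to 3.73% of the sum with Cox6c. The longest stretch without a difference was 145 bases, slightly less than the reads of 150 bases. Of 13 genes left out because their name marks a pseudogene, Cox7c-ps1 had the highest level, with 67.9 and 75.9 against 97.0 and 72.4 FPKM, while Cox7c itself had at least 648. The annotation also places 27 members over a gene on the opposite strand with a mean above 1 FPKM. No strand setting was given, so contributions from these genes cannot be separated. They include Eef1b2, with a mean of 281 FPKM against 46.2 of Ndufs1, and Smdt1, with 109 against 386 of Ndufa6. The values of Ndufs1 and Ndufa6 carry this limit.

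The labels set RVC-processed against fresh-frozen tissue. No member passed the adjusted threshold of 0.05 (limma, Benjamini-Hochberg over all 13771 genes, n = 2 against 2), and 5 of all genes did (0.0363%). The smallest adjusted p among members was 0.129. At an unadjusted p under 0.05 there were 7 members, against 18.4% of all genes. Of these, 6 had higher values in RVC (Ndufa11, Ndufb2, Ndufs7, Ndufb4c, Cox8a and Cox7a1), against 9.38% of all genes, and 1 lower values (Atp5pb), against 8.99%. On the scale of log2(scaled FPKM + 1), which understates the change of low genes, no member differed by 2-fold or more in any of the 4 pairings of an RVC with a frozen library. In FPKM, Cox6b2 did so against fresh frozen 1, at 2.2 and 2.1 against 0.627. The median member differed by 0.05 in log2, with 50 of 79 above 0, against 0.01 for all genes, of which 51% were above 0. The members were also more even across the 4 libraries than other genes: their median coefficient of variation was 7.70%, against 13.8% over all genes tested, which include many of lower level.

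The sign of the difference was uneven among complexes. Both RVC libraries were above both frozen ones in 33 members (41.8%), and below them in 12 (15.2%). Over all genes tested these shares were 26.5% and 26.6%. In complex IV, 9 of 12 members were higher without overlap and 2 lower, and the median difference was 0.16. The 9 include Cox6b2, which had a mean of only 1.71 FPKM. Ndufa4, counted with complex I by its name, was lower without overlap at -0.17. With Ndufa4 in complex IV, the median of that complex was again 0.16. Complex I had 14 of 38 higher and 4 lower with a median of 0.05, complex III 4 of 8 higher and 1 lower with 0.07, and complex V 5 of 17 higher and 4 lower with 0.01. Complex II had 1 of 4 in each direction and a median of 0.003, which turned to -0.002 without scaling. These counts leaned on single libraries. Fresh frozen 2 was the lowest library in 38 members (48.1%, against 25.1% of all genes) and fresh frozen 1 the highest in 33 (41.8%, against 27.4%). Without fresh frozen 2 the median difference of members was -0.01, with 39 of 79 above 0 and 34 lower without overlap, 40.0% of all genes being lower. Without fresh frozen 1 there were 50 higher without overlap, against 38.6% of all genes, and without RVC 1 there were 20 lower, against 36.2%. The median of complex IV stayed above 0 in each of these fits, between 0.10 and 0.17, while that of complex V ranged from -0.07 to 0.08. Beside the members, the 12 colonocyte markers were all higher on average in RVC, 6 of them without overlap, with a median difference of 0.17. Other markers differed by more: 7 of 7 tested endothelial, 4 of 5 plasma cell and 6 of 8 macrophage markers were higher without overlap, with medians of 0.58, 0.62 and 0.45. Of 8 tested stem and proliferation markers, 5 were higher and 3 lower on average, with a median of 0.02. Among these 8, Mki67 and Top2a were lower without overlap and none was higher without overlap. The part of these cells in the members' differences was not tested.

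**Figure D2:**
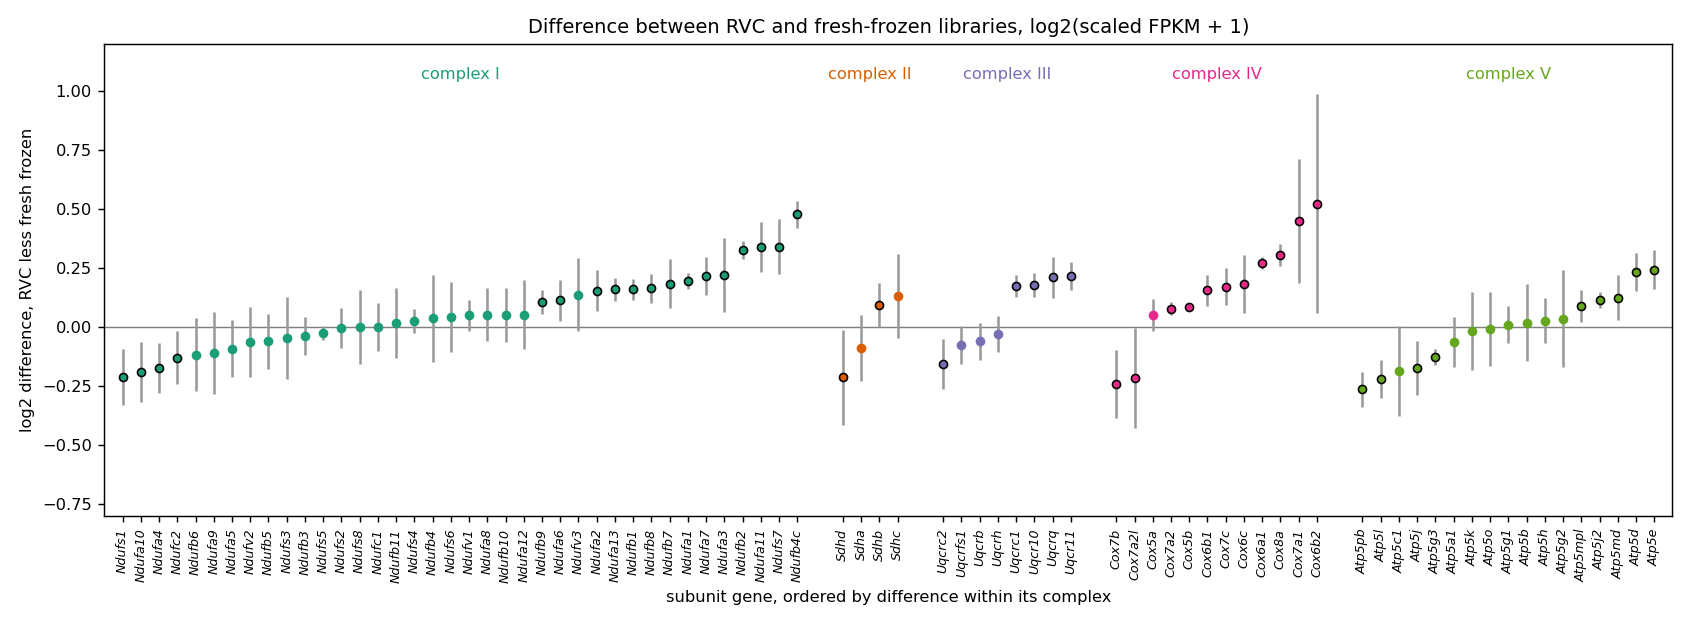
Difference between RVC and fresh-frozen libraries in log2(scaled FPKM + 1) for each tested subunit gene, by complex, with bars from the lowest to the highest of the 4 library pairings and black outlines where the groups do not overlap. In complex IV, 9 of 12 genes are above 0 with an outline, and Cox7b and Cox7a2l lie below.

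The members with the largest differences among those whose groups did not overlap were, upward, Cox6b2 at 0.52 (SE 0.27), Ndufb4c at 0.48 (SE 0.10), Cox7a1 at 0.45 (SE 0.14), Ndufs7 at 0.34 (SE 0.11) and Ndufa11 at 0.34 (SE 0.11). Ndufa11, a membrane-arm subunit, had 121 and 113 FPKM in the RVC and 97.2 and 88.2 in the frozen libraries. Their adjusted p by limma ran from 0.129 to 0.336. The Cox6b2 value rests on about 2 FPKM and on fresh frozen 1: its difference was 0.09 without that library, 0.96 without fresh frozen 2, 0.88 with a pseudocount of 0.1 and 0.20 with protein-coding transcripts only, and it is too low for a statement. Downward were Atp5pb at -0.26 (SE 0.11), Cox7b at -0.24 (SE 0.13), Atp5l at -0.22 (SE 0.12), Cox7a2l at -0.22 (SE 0.14) and Sdhd at -0.21 (SE 0.13), with adjusted p by limma from 0.263 to 0.412. In Cox7a2l and Sdhd fresh frozen 1 alone stood apart, and without it their differences were -0.06 and -0.07, while without fresh frozen 2 they were -0.38 and -0.36. Without RVC 1, Cox7b was at -0.14. With the GC trend of each library removed, an alternative chosen after the data were seen, Ndufs7 was at 0.11, Ndufa11 at 0.18, Atp5pb at -0.17 and Cox7b at -0.06. Atp5l was at -0.06 with transcripts of at least 300 nt and at -0.05 with its most abundant transcript, with which Atp5pb was at -0.15.

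The differences between groups followed the base composition of the transcripts. Among the 23 members whose main transcript had a GC content of 55% or more, all 23 were higher on average in RVC, with a median log2 difference of 0.18. Among the 11 below 45%, 2 were higher and the median was -0.06. All genes tested had medians of 0.18 and -0.19 in the same bands, so the members lay within a pattern of the whole tissue. Spearman's rho between GC content and difference was 0.56 across the 79 members and 0.54 across 13674 genes with a value, a description in which genes share their libraries. Each of the 4 pairings of an RVC with a frozen library gave a rho between 0.43 and 0.63 in members. The pair of RVC libraries gave 0.16 and the pair of frozen ones 0.08. GC content was read from GENCODE vM39, in which the main transcript of 47 members was within 10% of its length in the files, and among these 47 the rho was 0.62. The coding sequences of Cox8a (chr19:7192754-7194877, minus strand) and Cox7b (chrX:105059437-105065429, plus strand), subunits of the same complex, show the range of base composition, with every G and C in capitals (GENCODE vM39, GRCm39, 5′ to 3′).
Cox8a: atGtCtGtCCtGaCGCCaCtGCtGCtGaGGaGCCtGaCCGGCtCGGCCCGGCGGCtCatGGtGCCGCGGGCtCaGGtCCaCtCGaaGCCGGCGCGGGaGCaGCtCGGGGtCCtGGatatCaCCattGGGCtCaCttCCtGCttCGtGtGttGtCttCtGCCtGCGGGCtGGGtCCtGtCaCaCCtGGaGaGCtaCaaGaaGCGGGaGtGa
Cox7b: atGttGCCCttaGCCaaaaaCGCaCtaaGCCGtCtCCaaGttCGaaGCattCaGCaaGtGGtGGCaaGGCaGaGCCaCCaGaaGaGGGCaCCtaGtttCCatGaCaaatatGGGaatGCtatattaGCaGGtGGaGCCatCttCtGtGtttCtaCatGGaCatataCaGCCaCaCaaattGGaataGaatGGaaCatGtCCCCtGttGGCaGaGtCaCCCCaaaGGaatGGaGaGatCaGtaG
Of the 210 bases of Cox8a, 136 are G or C (64.8%), and of the 243 of Cox7b, 115 (47.3%). The sequences show composition alone: the transcripts they belong to were both higher in RVC, by 0.31 and 0.19 in log2.

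**Figure D3:**
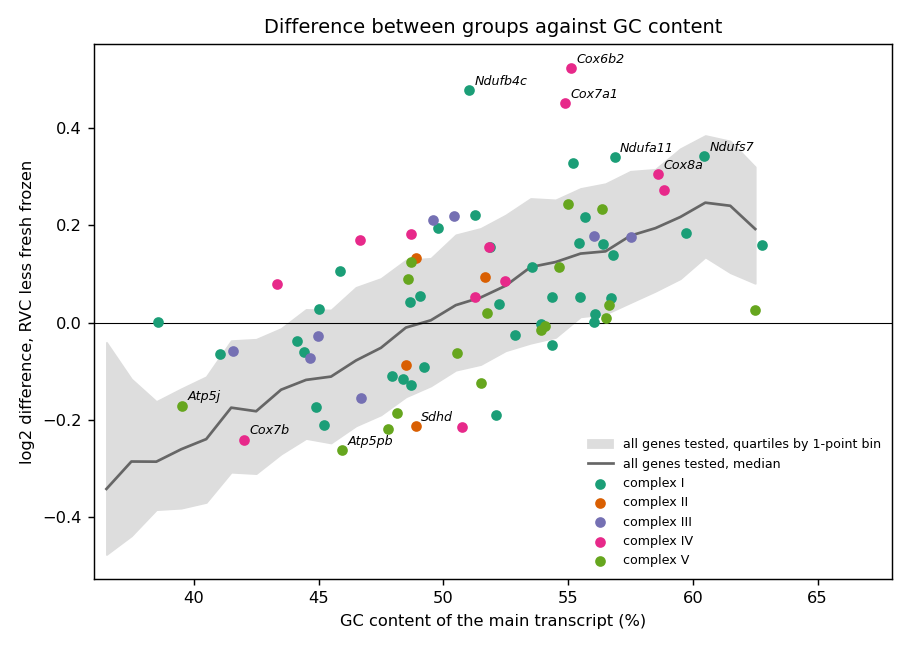
Difference between RVC and fresh frozen in log2(scaled FPKM + 1) against the GC content of the main transcript (%), for the 79 members in colours by complex, over the median and quartiles of all genes tested. Members and all genes both go from below 0 at low GC content to above 0 at 55% and more.

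With the GC trend of each library removed, the median difference of members was 0.01, and 27 members were higher and 13 lower without overlap, against 22.4% and 22.6% of all genes. The median of complex IV was then 0.10 and that of complex V -0.11. Transcript length went with the difference between groups in members, and much less over all genes tested. Of 36 members with a main transcript of 300 to 600 nt, 28 were higher on average in RVC, and of 19 of at least 1000 nt, 5 were. Spearman's rho with length was -0.47 across members, and from -0.57 to -0.22 in the 4 pairings of an RVC with a frozen library. Across all genes tested it was -0.05, and from -0.20 to 0.08 in the pairings. GC content and length were unrelated within the members (rho of 0.009). The frozen libraries differed between themselves with length as well, with a rho of 0.41 in members and of -0.25 over all genes tested. A relation with length was thus also present within a group, with opposite sign in members and in all genes. The part of GC content and length in the differences was not tested.

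For some members, the gene sum hid transcripts that moved apart. In 54 of 79 tested members 1 transcript carried at least 80% of the level, and in 6 the main transcript differed in the opposite direction to the gene. Cox7b was the clearest case. Its coding transcript of 1001 nt had 253 and 285 FPKM in the RVC and 232 and 242 in the frozen libraries, so both RVC libraries were higher. A shorter transcript of 526 nt, annotated as a retained intron and covering the last part of the gene (chrX:105062997-105065564), had 79.0 and 104 against 184 and 193 FPKM. The log2 difference of the coding transcript was 0.19, and that of the gene sum was -0.24. In the values as listed, the lower Cox7b sum in RVC thus lay in the retained-intron model. The part of the division of reads between these overlapping models was not tested. Atp5j, whose largest model is also annotated as a retained intron, had 179 and 209 against 257 and 232 FPKM there, and 90.6 and 100.1 against 86.5 and 87.3 FPKM in its largest coding transcript. In Atp5l a transcript of 295 nt without a defined coding sequence had 12.6 and 18.4 against 58.2 and 60.4 FPKM, and the coding transcript 332 and 353 against 374 and 345.

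**Figure D4:**
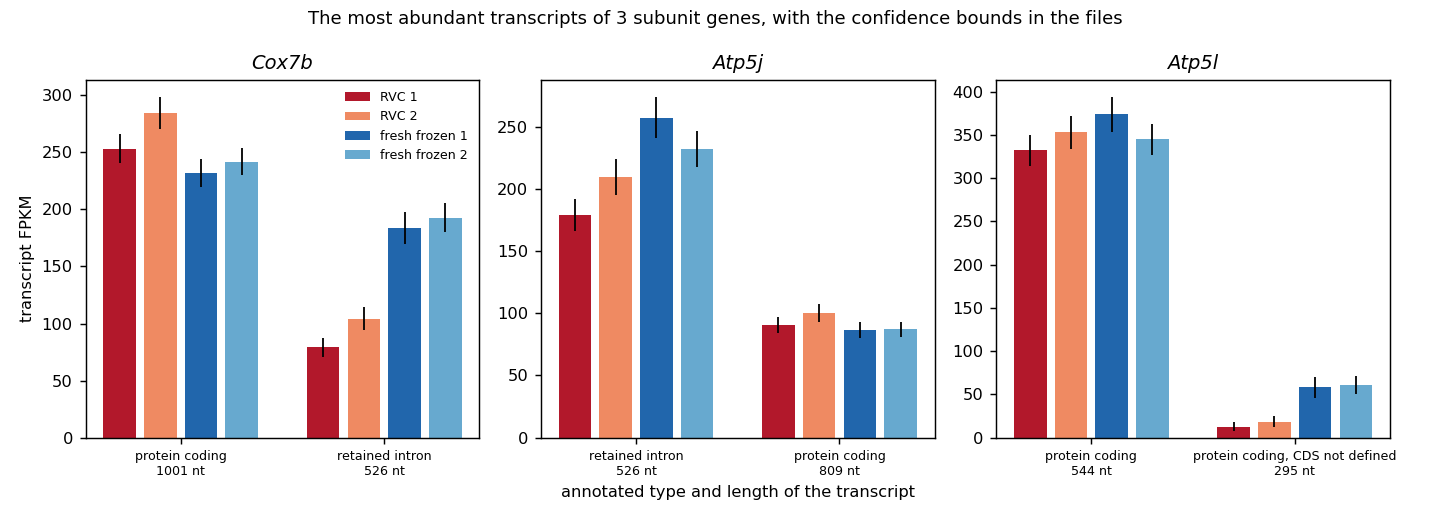
FPKM of the leading transcripts of Cox7b, Atp5j and Atp5l in the 4 libraries, with the confidence bounds of the estimate as lines. The retained-intron transcript of Cox7b has 79.0 and 104 FPKM in RVC against 184 and 193 in frozen tissue, and the coding transcript 253 and 285 against 232 and 242.

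Over all tested members, retained-intron models held 2.52% and 2.77% of the level in RVC against 3.69% and 3.72% in frozen tissue, without overlap. Their summed level was 480 and 534 FPKM in RVC against 696 and 662 in frozen tissue. The models of Cox7b and Atp5j given above held a large part of this sum and of its difference. The pooled share therefore does not describe the members at large. Over coding nuclear genes tested, the share of retained-intron models was 4.30% and 4.32% against 4.26% and 4.62%, with overlap. Of 33 members with more than 1 FPKM in such models, these models were lower without overlap in 7 and higher in 7, 21.2% each. Among 2602 genes tested with such models the shares were 20.8% and 25.7%, so the members' counts lay near those of other genes. Cufflinks assigns reads to overlapping models by likelihood, and reads of the shared exons cannot be assigned for certain.

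Some promoters of the subunit genes held short motifs that the naming rule did not use. RefSeq promoters of GRCm38.p6, from 250 bases before to 50 after the start, matched 67 of the 79 tested members. The palindromic motif of NRF1, nuclear respiratory factor, was in 25.4% of these members and in 5.19% of all 27025 genes with a promoter. The motif CCGGAAG of ETS factors was in 25.4% against 9.93%, the YY1 motif AAGATGGC in 14.9% against 3.19%, and the motif TCAAGGTCA of estrogen-related receptors in 2.99% against 0.466%. The GC box GGGCGG was in 40.3% against 38.2%, and the TATA box TATAAA in 8.96% against 15.7%. Motifs were searched on both strands and each counted on its own, and a match is only a match of letters. The share for estrogen-related receptors rests on 2 members. All genes with a promoter served for comparison, tested here or not, without matching for level or promoter GC content. At least 1 of the NRF1, ETS and YY1 motifs was present in 38 of the 67 members and in 16.4% of all genes. The windows of Cox6a1 (GRCm38.p6, chr5:115348909-115349208, minus strand) and Sdhd (chr9:50603800-50604099, minus strand) are shown 5′ to 3′ because they combine such motifs and belong to genes whose differences had opposite signs, 0.27 and -0.21. Capitals mark NRF1, ETS and estrogen-related receptor motifs on either strand.
Cox6a1: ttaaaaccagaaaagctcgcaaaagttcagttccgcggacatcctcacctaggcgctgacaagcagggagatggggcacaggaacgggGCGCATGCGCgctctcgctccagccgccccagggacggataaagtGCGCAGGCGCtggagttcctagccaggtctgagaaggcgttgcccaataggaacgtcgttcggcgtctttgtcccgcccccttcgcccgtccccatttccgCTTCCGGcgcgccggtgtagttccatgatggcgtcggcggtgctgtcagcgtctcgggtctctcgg
Sdhd: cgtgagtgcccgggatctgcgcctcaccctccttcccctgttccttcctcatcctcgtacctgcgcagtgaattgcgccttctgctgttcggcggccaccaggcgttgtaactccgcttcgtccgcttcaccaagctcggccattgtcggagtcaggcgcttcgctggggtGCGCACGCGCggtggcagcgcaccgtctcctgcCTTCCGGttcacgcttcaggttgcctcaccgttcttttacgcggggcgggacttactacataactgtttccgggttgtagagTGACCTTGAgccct
In Cox6a1 the NRF1 motif begins at bases 89 and 134 of the window and the ETS motif at 235. In Sdhd the NRF1 motif begins at 172, the ETS motif at 205 and the estrogen-related receptor motif at 287. The 17 members with an NRF1 motif had a median log2 difference of 0.03 between groups and the 50 without one of 0.05, and for ETS motifs the medians were 0.03 and 0.05 as well.

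Genes that work with the subunits were compared with lists fixed by function. The 13 mitochondrially encoded subunits had a median of 4686 FPKM. The highest means were those of mt-Atp8, which is too short for the test, and of mt-Co1, a catalytic subunit of complex IV, with a mean of 13388 FPKM. The lowest, mt-Nd6, had a mean of 1008 FPKM, below that of the nuclear Cox6c. All 11 tested were lower on average in RVC and 9 without overlap, against 26.6% of all genes. Their median log2 difference was -0.26, and none passed the adjusted threshold. The nuclear subunits thus had a median of 0.05 where the mitochondrial ones had -0.26. The gap was widest for RVC 1, in which the 13 genes summed to 51767 FPKM against 67551 in RVC 2 and 81030 and 77010 in the frozen libraries. Base composition differed too: the tested mitochondrial genes had a GC content of 33.0% to 39.9%, against a median of 51.5% in tested members. All genes tested had a median difference of -0.34 in the GC bin starting at 36% and of -0.26 in that starting at 39%. The part of GC content in the gap between nuclear and mitochondrial subunits was not tested.

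Over all genes tested, 26.5% were higher and 26.6% lower without overlap, for comparison with the counts of the lists below. Of 45 tested assembly factors, which build the complexes without remaining in them, 7 were higher and 17 lower without overlap, with a median of -0.10. Cox17, a copper chaperone for complex IV, had the highest level, with 181 and 171 against 159 and 152 FPKM. Of 13 enzymes of the tricarboxylic acid cycle, 2 were higher and 7 lower without overlap, with a median of -0.18, and citrate synthase, Cs, was the most abundant, with 251 and 225 against 211 and 192 FPKM. Of 12 regulators of mitochondrial genes, 1 was higher and 3 lower without overlap, with a median of 0.02. The 3 lower ones were Tfb1m, Tfb2m and Tfam, which packages and transcribes mitochondrial DNA and had 11.3 and 11.8 against 14.5 and 15.5 FPKM. Esrra, an estrogen-related receptor, was the highest regulator, with 48.4 and 39.6 against 35.4 and 38.9 FPKM. Of 13 transport genes of the mitochondrial membranes, 2 were higher and 4 lower without overlap, with a median of 0.02, and the ATP carrier Slc25a5 led them with a mean of 917 FPKM. None of the genes of these lists passed the adjusted threshold. The carriers outside the naming rule were at 98.7 and 104 against 115 and 111 FPKM for Ndufab1, the acyl carrier subunit of complex I, and at 85.2 and 77.8 against 88.6 and 85.6 FPKM for Cycs, cytochrome c.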

How the data were processed

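Per the submitters' processing notes, reads (150-base pairs, from ribosomal RNA-depleted total RNA) were aligned with TopHat2 2.1.1 to GRCm39 and quantified with Cufflinks 2.2.1; annotation release and strand setting were not given in the sources used here. The deposited FPKM values were per transcript, and a deposited coverage column, a signal of reads per base, served only for relative depth. Because FPKM are normalized, no count test was run. Transcripts were summed per gene, libraries scaled by median ratio, and log2(scaled FPKM + 1) was fitted with limma 3.58.1 in R 4.3.3 (trend, two-sided, 4 libraries), with Benjamini-Hochberg adjustment over 13771 genes at a threshold of 0.05. The fit was also run on data simulated from its own variance model. Those data held no GC trend or batch, so they do not show how the fit behaves on these libraries. No label states separate animals, so p-values measure only the spread between these libraries, which may be technical, and an exact permutation of 2 against 2 libraries cannot go below 0.333. Levels are deposited FPKM, and gene types, GC content and coding sequences came from GENCODE vM39.

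The members and lists were chosen with earlier results of these data known. Members named with values were the 3 highest and 2 lowest of each complex, the 5 largest differences in each direction among those whose groups did not overlap, and all isoform and c ring genes; the lists gave their highest gene. Other members were named after their values were seen. Tables and figures were made with pandas 2.3.3 and matplotlib 3.10.9.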

Additional observations from a re-analysis of the deposited data

How the results depend on the processing

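No member passed the adjusted threshold in any of 18 alternatives to the fit, with 1 to 13 members (1.27% to 16.7%) at an unadjusted p under 0.05, against 9.23% to 21.7% of all genes. The order of the complexes by median level was the same in all of them. The number of all genes past the threshold, 5, was 0 with no filter on low values (3531 at an unadjusted p under 0.05), 0 with transcripts of at least 300 nt only (2577), 0 without the mean-variance trend (2461), 0 with protein-coding transcripts only (2357), 2 with a mean of at least 5, 2 with the most abundant transcript and 3 with the GC trend removed. It ranged from 8 to 40 with 1 library left out, where the lone library of a group is assumed to vary like the other group. GC removal and the restriction to protein-coding transcripts were chosen after the data were seen. A replicate block on sample number gave 112 genes, none of them members, but the numbers share no batch and the deviations of same-numbered libraries had a correlation of -0.13, so the libraries share only a number. Cox7b changed sign with its most abundant transcript (0.20) and with protein-coding transcripts only (0.18), since both leave out its retained-intron transcript. With 1 library left out, the median difference of members ranged from -0.013 (without fresh frozen 2) to 0.092, those higher without overlap from 35 to 50, and those lower from 17 to 34. The cause was not tested. With 2 libraries a group, the SE of a member's log2 difference limits what the fit can call.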
